A study of Mus musculus with 16 samples.

Results

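The tumour necrosis factor (TNF) superfamily ligands and receptors were examined in the liver and kidney of mice kept under long-term circadian misalignment. The members were the rows of the deposited gene tables whose symbol begins with Tnfsf or Tnfrsf followed by a number, together with Tnf, Lta, Ltb, Ltbr, Cd40, Cd40lg, Fas and Fasl. This rule gave 37 of the 32989 genes. Of these, 14 were ligands, 5 were receptors with a death domain, 3 were decoy or soluble receptors and 15 were the remaining receptors, most of which bind TRAF adaptors. Tnfsf12 and Tnfsf13 had no row under these symbols and were not analysed here. RNA from 16 libraries was available, 4 for each organ and condition, and every library came from 1 male C57BL/6J mouse aged 97 weeks. The LD mice (L63, L65, L86 and L104) had lived for 85 weeks with light from 8 to 20 o'clock, and the ADV mice (A75, A91, A94 and A115) had lived for the same time under a cycle advanced by 8 h every 4 days. Liver and kidney came from the same 8 mice, and neither group carried an allele or received an agent.

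TNF superfamily ligands are mostly trimeric membrane proteins that can be shed, and they cluster their receptors on the target cell. Receptors with a death domain recruit adaptors that can activate caspases, whereas most others recruit TRAF proteins and activate NF-kB. Several pairs act between lymphocytes and antigen-presenting cells, such as CD40 ligand with CD40 and BAFF with its receptors, whereas others signal in epithelium, liver cells or bone, such as lymphotoxin beta receptor, TWEAK receptor and RANK.

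Expression was measured by poly(A) RNA-seq and deposited as FPKM, the fragments of a gene divided by its exon length in kb and by the size of the library. On annotated genes lay 21092501 to 24285055 fragments per liver and 15688495 to 18043306 per kidney, and 1 fragment in a gene with 1 kb of exon was worth 0.0380 to 0.0584 FPKM. The 6 hepatocyte markers summed to between 55665 and 68273 FPKM in the livers, and the 6 proximal tubule markers summed to between 18378 and 46278 FPKM in the kidneys. Of these libraries, both of mouse A94 stood apart. Its 9 B cell markers summed to 67.3 FPKM in the liver and 65.2 FPKM in the kidney, against 1.5 to 4.02 and 1.27 to 5.67 FPKM in the other 7 mice, and all 9 of them in the liver and 8 in the kidney were highest in A94. The kidney of A115 also stood apart, with 33.8% of its fragments on mitochondrial genes against 9.43% to 18.0% in the other kidneys. In bulk RNA, fewer cells of a type and less RNA per cell cannot be told apart. A pair of sequencing providers was used and which library came from which is not given in the sources used here, so that provider and group cannot be told apart.

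Promoter sequences of RefSeq (GRCm38.p6) were matched by symbol for 29 of the 37 members and searched on both strands over 250 bases before and 50 bases after the start of transcription. The canonical E-box CACGTG, the site that the clock proteins CLOCK and BMAL1 bind, occurred in the promoters of 6 members (Fas, Ltbr, Tnfrsf19, Tnfrsf21, Tnfrsf4 and Tnfrsf8) and in 7.15% of all 32851 promoters of this length. The NF-kB consensus occurred in 4 members (Ltb, Tnfrsf25, Tnfrsf8 and Tnfrsf9) and in 8.46% of all promoters. In Fas, Ltbr and Tnfrsf21 the E-box began 110, 125 and 5 bases before the start, and in Ltb the NF-kB motif began 87 bases before it. These 4 promoters are shown because the largest organ difference (Tnfrsf21), the kidney difference that rests on A115 (Ltbr) and the largest liver difference between the conditions (Ltb) belong to them, and because Fas is a death receptor with the same E-box. Each runs from 250 bases before the start to 20 bases after it, 5′ to 3′ on the strand of the gene, with the motif in capitals. A match describes these letters only.
Fas (chr19:34290409-34290678, plus strand): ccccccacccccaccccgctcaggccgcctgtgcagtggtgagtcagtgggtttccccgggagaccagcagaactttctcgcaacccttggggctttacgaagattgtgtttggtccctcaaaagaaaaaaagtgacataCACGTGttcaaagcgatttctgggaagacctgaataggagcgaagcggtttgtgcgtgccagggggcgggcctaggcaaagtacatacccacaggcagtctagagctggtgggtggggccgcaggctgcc
Ltbr (chr6:125313866-125314135, minus strand): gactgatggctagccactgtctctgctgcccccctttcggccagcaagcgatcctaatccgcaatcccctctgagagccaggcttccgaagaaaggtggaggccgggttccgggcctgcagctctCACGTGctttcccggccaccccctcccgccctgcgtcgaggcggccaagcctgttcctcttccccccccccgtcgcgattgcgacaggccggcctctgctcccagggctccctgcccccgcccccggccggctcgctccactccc
Tnfrsf21 (chr17:43016305-43016574, plus strand): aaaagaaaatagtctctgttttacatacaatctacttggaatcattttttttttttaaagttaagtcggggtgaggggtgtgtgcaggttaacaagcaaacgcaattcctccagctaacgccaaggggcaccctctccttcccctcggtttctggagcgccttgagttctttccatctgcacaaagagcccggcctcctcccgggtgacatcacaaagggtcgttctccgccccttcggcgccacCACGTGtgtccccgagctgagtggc
Ltb (chr17:35194257-35194526, plus strand): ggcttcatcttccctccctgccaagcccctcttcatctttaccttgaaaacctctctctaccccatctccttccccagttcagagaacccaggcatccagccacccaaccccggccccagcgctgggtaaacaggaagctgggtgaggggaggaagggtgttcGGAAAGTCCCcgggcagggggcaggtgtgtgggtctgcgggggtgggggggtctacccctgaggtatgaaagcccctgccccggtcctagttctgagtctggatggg

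Detection limited the ligands more than the receptors. A gene was tested where its FPKM times exon length in kb exceeded 0.5 on average over the organ's 8 libraries, and 18 members passed in the liver and 24 in the kidney, with all 18 of the liver among the 24 of the kidney. In the liver 3 of 14 ligands passed (Ltb, Tnfsf10 and Tnfsf13b) and in the kidney 6 of 14, with Tnfsf8, Tnfsf9 and Tnfsf15 added. On the LD libraries alone 14 members would have passed in the liver and 19 in the kidney. Cd40, Tnfrsf13c and Tnfsf13b in the liver and Tnfrsf13c, Tnfrsf14, Tnfrsf18, Tnfrsf4 and Tnfsf8 in the kidney passed only with the library of A94. Tnfrsf23 in the liver passed without A94, but through ADV, with a mean of 0.453 in the LD livers and 0.847 in the ADV livers. A member that passed in either way had to be high in ADV, so that counts over the members tested describe them and support no direction. The 13 members that passed in neither organ were Cd40lg, Fasl, Lta, Tnf, Tnfrsf13b, Tnfrsf17, Tnfrsf25, Tnfrsf8, Tnfrsf9, Tnfsf11, Tnfsf14, Tnfsf18 and Tnfsf4. The 19 members under the minimum in the liver read at most 0.175 FPKM outside A94, and 17 of them were highest in A94, up to 2.64 FPKM. The 13 under it in the kidney read at most 0.912 FPKM outside A94, and 11 were highest in A94, up to 2.33 FPKM.

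Whether the ADV condition changed the family was tested with limma on log2(FPKM + 0.1) in each organ. No member passed an adjusted p of 0.05 (limma, Benjamini-Hochberg over all genes tested) in either organ. In the liver 0 of 18 members passed, as 0.00779% of all genes did, and 1 member, Tnfrsf11b, had an unadjusted p under 0.05, where 8.65% of all genes were higher and 3.13% lower at that level. That split of all genes was 1110 higher to 402 lower as deposited and 795 to 936 after scaling by the median ratio, since the median of all genes moved from 0.096 to −0.0020. In the kidney 0 of 24 members passed, as 0% of all genes did, and 1 member, Tnfrsf11a, had an unadjusted p under 0.05, beside 1.75% of all genes higher and 1.35% lower. The members tested had a median log2 difference of 0.41 in the liver, with 16 of 18 higher in ADV, and of 0.19 in the kidney, with 20 of 24 higher and a median over all genes of −0.024. Without A94 these medians were 0.19 over 15 members in the liver and −0.040 over 19 members in the kidney, of which 9 and 6 were higher. The members that passed only with A94 were then no longer in the sets. No median of all genes without A94 stands beside these values.

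**Figure D1:**
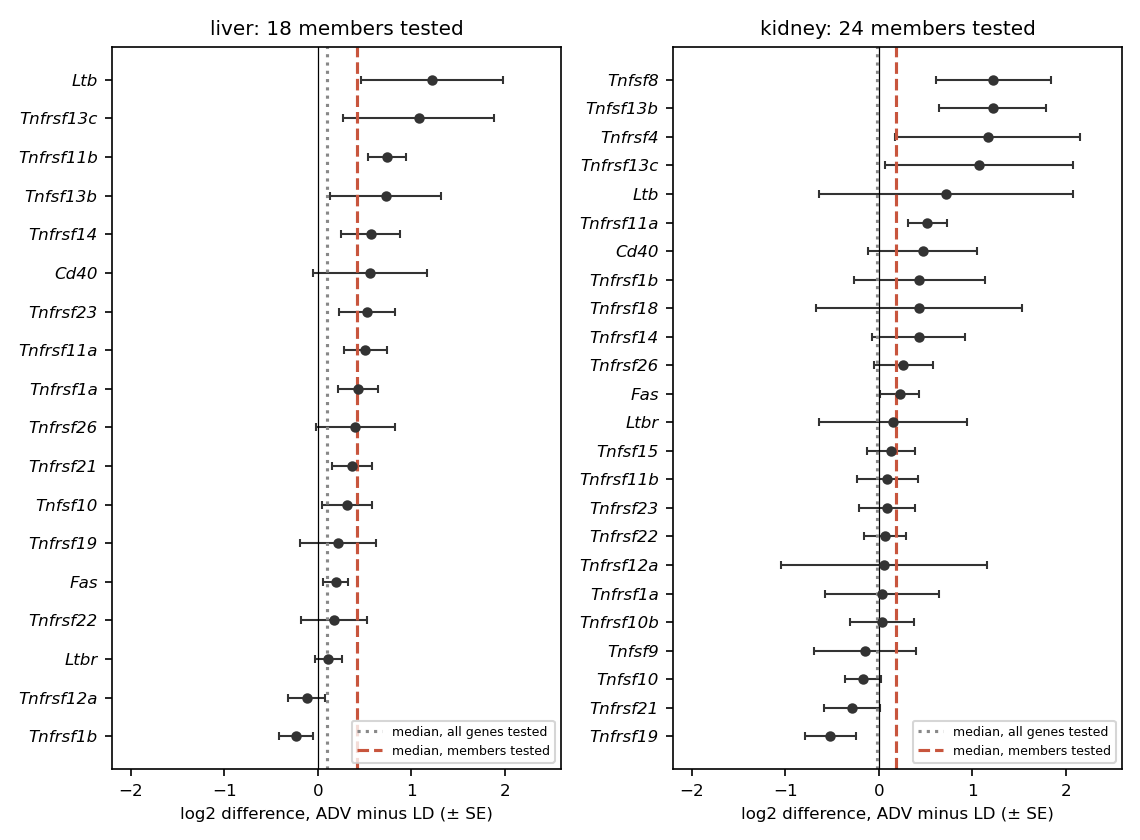
Log2 difference of each member tested, ADV minus LD on log2(FPKM + 0.1), in the liver (left, 18 members) and the kidney (right, 24 members). Points are limma estimates with their SE from 4 mice against 4, the dotted line is the median of all genes tested and the dashed line the median of the members, at 0.41 (liver) and 0.19 (kidney).

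These medians moved with single mice. Among the livers, A94 held the highest value of 33 of the 37 members, and of the 18 tested 16 did, beside 49.7% of all genes. In the kidney 22 of 37 were highest in A94 and 8 in A75, and of the 24 tested 11 were highest in A94, beside 26.2% of all genes. Of those 24, 13 were lowest in A115, beside 55.4% of all genes. Relative to the median of the other 7 mice, the members tested in A94 had a median log2 difference of 1.08 in the liver (0.28 for all genes) and of 0.63 in the kidney (0.23 for all genes). After scaling by the median ratio the members' values were 0.78 and 0.46 (−0.031 and 0.0075 for all genes), and with quantile normalization 0.53 and 0.27 (−0.11 and −0.11 for all genes), when 15 of 18 and 14 of 24 members lay above the median of the other 7 mice. Of the members tested, 3 in the liver and 5 in the kidney passed the minimum only with A94 and had to be high there. The medians and counts of A94 therefore describe the members tested and support no contrast with all genes. Leaving out 1 mouse moved the difference between the conditions by over 1.5 times for 13 of 18 members in the liver (11 of them without A94) and for 21 of 24 in the kidney (14 without A94 and 17 without A115), and it turned the sign for 4 and 14 members. The differences not moved so far were those of Tnfrsf11a, Tnfrsf11b and Tnfrsf21 in the liver and of Tnfrsf11a and Tnfrsf19 in the kidney, besides Tnfrsf13c and Tnfsf13b in the liver and Tnfsf8 in the kidney, which were not tested without A94.

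**Figure D2:**
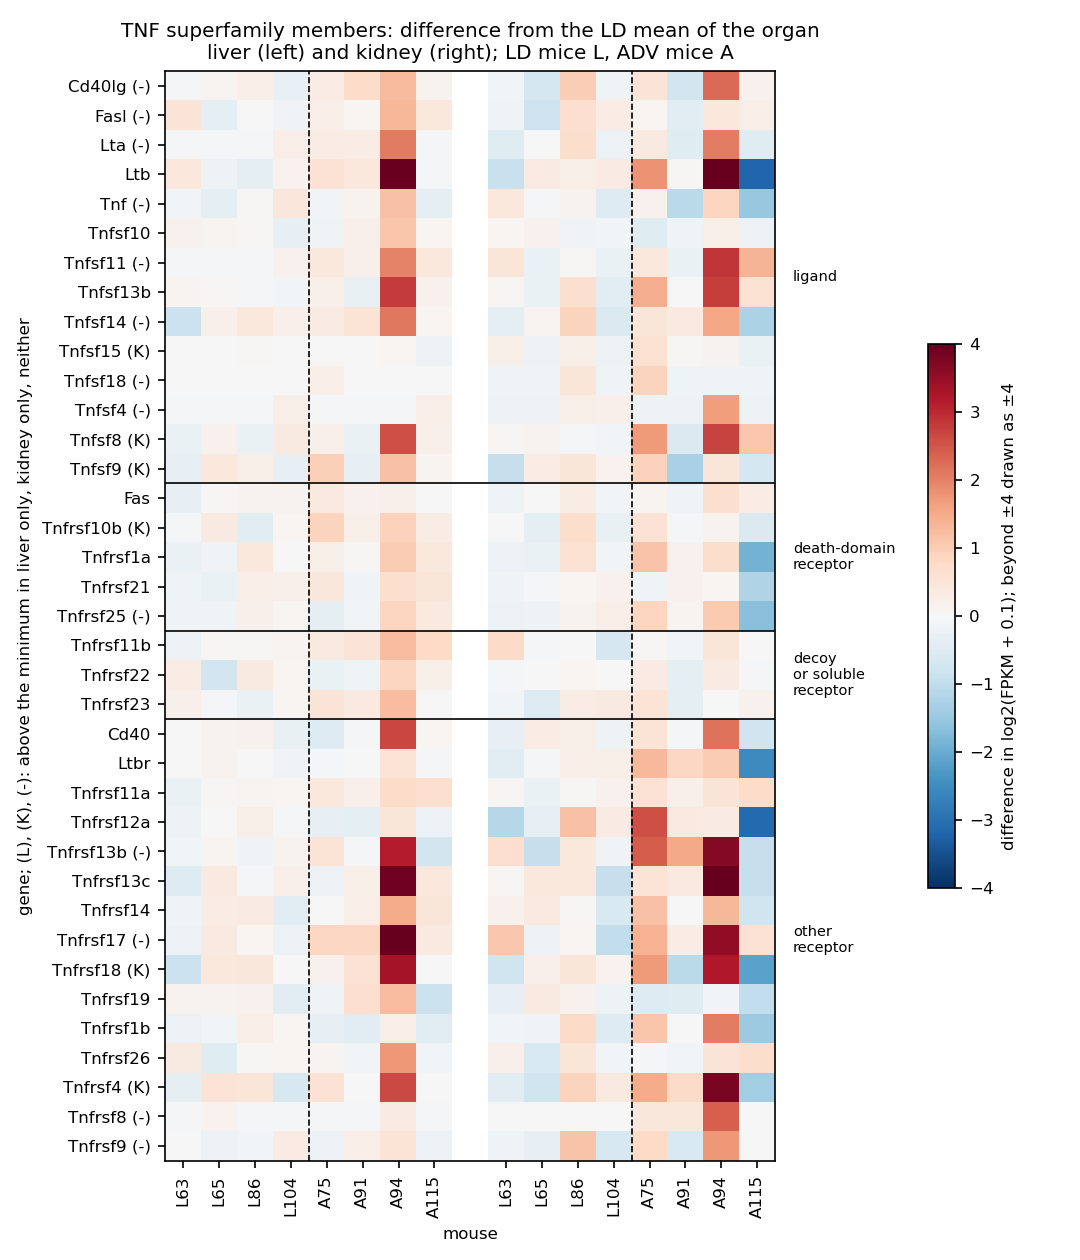
Difference of each of the 37 members from the mean of the LD mice of the same organ, on log2(FPKM + 0.1), with the liver on the left and the kidney on the right, and rows grouped by role. Letters behind a name mark members that passed the minimum in the kidney only (K) or in neither organ (-), and the column of A94 is the darkest in both organs.

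RANK (Tnfrsf11a, chr1:105780723-105847981, plus strand), the receptor that RANK ligand uses to drive osteoclast formation, was the only member tested whose ADV mice all lay above the LD mice in both organs. In the liver it read 0.106, 0.154, 0.167 and 0.159 FPKM in L63, L65, L86 and L104, and 0.226, 0.181, 0.311 and 0.292 FPKM in A75, A91, A94 and A115, an order of mice kept below. The kidneys read 0.597, 0.466, 0.592 and 0.66 FPKM in LD and 0.914, 0.677, 0.871 and 1.03 FPKM in ADV. The log2 difference was 0.51 ± 0.23 (SE) in the liver (limma p = 0.0539, adjusted p = 0.431) and 0.52 ± 0.21 in the kidney (p = 0.0378, adjusted p = 1.0), with an exact two-sided permutation p of 0.0286 in each organ. No smaller value can be had with 4 mice in each group. Across all genes tested 6.94% in the liver and 0.962% in the kidney had every ADV mouse above every LD mouse, and 1.89% and 1.83% had every ADV mouse below. The share of all genes with every ADV mouse above in both organs was not counted, so that no rate stands beside this member. The separation was narrow in reads. The highest LD liver held 22 fragments and the lowest ADV liver 21, with exact Poisson intervals (95%, counting error only) of 0.105 to 0.253 and 0.112 to 0.277 FPKM. In the kidney these were 60 fragments in both L104 and A91, with intervals of 0.503 to 0.849 and 0.516 to 0.871 FPKM. With the median ratio as scaling the groups remained apart in the liver and overlapped in the kidney, and with quantile normalization they overlapped in both organs. With mitochondrial genes left out of the totals they remained apart in the liver and overlapped in the kidney, where A115 held the highest value as deposited. Without A115 and with quantile normalization the kidney difference was far smaller, as given in the last section.

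Osteoprotegerin (Tnfrsf11b, chr15:54250619-54278484, minus strand), the secreted decoy receptor for RANK ligand, was the other member above the minimum whose ADV livers all lay above the LD livers. It read 0.77, 0.959, 0.953 and 1.0 FPKM in LD and 1.24, 1.37, 2.31 and 1.66 FPKM in ADV, 0.921 ± 0.103 and 1.64 ± 0.476 (SD, n = 4). The log2 difference of 0.74 ± 0.20 (SE) had a limma p of 0.00517, an adjusted p of 0.296 and an exact permutation p of 0.0286. Without A94 the difference was 0.57 ± 0.16 (limma adjusted p = 0.193), and the groups stayed apart with the median ratio and with quantile normalization. In the kidney it read 0.495, 0.228, 0.248 and 0.118 FPKM in LD and 0.257, 0.221, 0.388 and 0.241 FPKM in ADV, so that the conditions overlapped. RANK ligand (Tnfsf11) was under the minimum in both organs, with 0 to 2 fragments in every liver but that of A94 (16 fragments) and with 34 and 9 fragments in the kidneys of A94 and A115 against 0 to 3 in the other 6. Tnfsf11 and Tnfrsf17, both under the minimum, also had every ADV liver above every LD liver, but the gap lay between 0.0183 FPKM in L104 and 0.0194 FPKM in A91 for Tnfsf11, 1 fragment in each, and between 0.0501 and 0.0533 FPKM for Tnfrsf17.

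**Figure D3:**
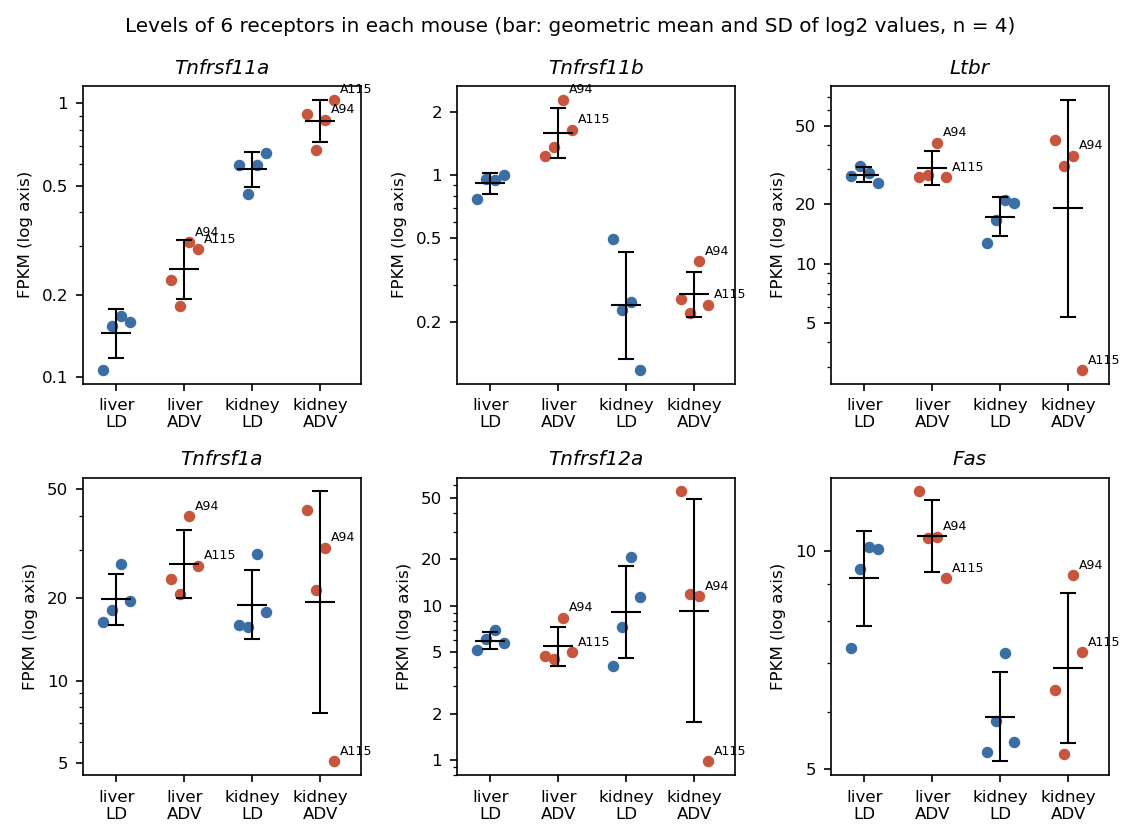
FPKM on a log axis of 6 receptors in each mouse, with LD in blue and ADV in red, and with the geometric mean and the SD of the log2 values (n = 4) as bars. Tnfrsf11a is the panel in which the red points lie above the blue points in both organs, and the kidney of A115 is the low point for Ltbr, Tnfrsf1a and Tnfrsf12a.

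Lymphotoxin beta receptor (Ltbr, chr6:125306571-125313870, minus strand), which drives the non-canonical NF-kB pathway, was higher in 3 ADV kidneys and low in the fourth. The LD kidneys read 12.7, 16.7, 21 and 20.2 FPKM and the ADV kidneys 42.3, 31.1, 35.2 and 2.88 FPKM, so that A75, A91 and A94 lay above every LD kidney and A115 below all of them. The share of all genes split in this way was not counted. With all mice the log2 difference was 0.15 ± 0.80 (SE, limma adjusted p = 1.0, exact permutation p = 0.971). Leaving out A115, which was chosen after its values had been seen, gave 1.05 ± 0.19 (limma adjusted p = 0.0134). Without both A94 and A115 it was 1.06 ± 0.22 (limma adjusted p = 0.0459), and without A115 but scaled by the median ratio 0.85 ± 0.16 (limma adjusted p = 0.0233). Without A115 the limma adjusted p was 0.0208 with quantile normalization and 0.0185 with mitochondrial genes left out of the totals, and Ltbr was the only member called in any of these 5 fits. That was 1 of 25 members without A115, where 18.8% of all genes passed, 1 of 20 without both mice (4.7% of all genes), 1 of 25 with the median ratio (16%) and with quantile normalization (16.2%), and 1 of 26 without mitochondrial genes (16%), so that apart from the fit without both mice the share of the members was under that of all genes. In the liver it read 27.8, 31.4, 28.8 and 25.5 FPKM in LD and 27.4, 28.1, 41.1 and 27.4 FPKM in ADV, with A94 above the rest.

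TNF receptor 1 (Tnfrsf1a, chr6:125349723-125362483, plus strand), which carries the death domain and lies 35.9 kb from Ltbr, had the same low kidney. It read 16, 15.7, 29 and 17.8 FPKM in the LD kidneys and 42.1, 21.5, 30.7 and 5.08 FPKM in the ADV kidneys. The livers read 16.4, 18.1, 26.8 and 19.5 FPKM in LD and 23.5, 20.7, 39.9 and 26.3 FPKM in ADV, a log2 difference of 0.43 ± 0.22 (SE, limma adjusted p = 0.454), and of 0.24 ± 0.16 without A94. TNF receptor 2 (Tnfrsf1b), the receptor without a death domain that is abundant on leukocytes, read 6.94, 7.64, 10.1 and 8.74 FPKM in the LD livers and 6.57, 6.04, 9.97 and 6.12 FPKM in the ADV livers. Outside A94, set aside here after its values were seen, the ADV livers were below every LD liver. The share of all genes that lay so was not counted. With A94 the log2 difference of Tnfrsf1b was -0.23 ± 0.18 (limma adjusted p = 0.579) and without it -0.40 ± 0.13 (limma adjusted p = 0.240). Its kidneys read 1.31, 1.26, 2.45 and 0.967 FPKM in LD and 3.19, 1.42, 6.11 and 0.458 FPKM in ADV, highest in A94 and lowest in A115. Tnf itself had 1 to 10 fragments per liver and 0 to 13.5 per kidney, with both maxima in A94. It was under the minimum in both organs, so that no difference between the conditions was tested.

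TWEAK receptor (Tnfrsf12a, also Fn14), which is induced in injured epithelium, varied widely between kidneys. It read 4.05, 7.23, 20.5 and 11.4 FPKM in LD and 55.2, 11.9, 11.5 and 0.978 FPKM in ADV, a range from A115 to A75 that lay outside all LD kidneys on both sides. The log2 difference was 0.05 ± 1.10 (SE, limma adjusted p = 1.0) and without A115 it was 1.1 ± 0.66 (limma adjusted p = 0.252). The summed level of 5 epithelial markers (Krt19, Krt7, Sox9, Epcam and Spp1), written as a bile duct list and also expressed in kidney tubules, was 6820.0 FPKM in A75, 8235 in A115 and 2793 in L86, against 664 to 917 FPKM in the other 5 kidneys, although 2 of the 5 markers were lowest in A115. The sum of the 6 proximal tubule markers was lowest in A75 (18378 FPKM) and highest in A115 (46278 FPKM), although 5 of the 6, each taken alone, were lowest in A115. Their part in the level of Tnfrsf12a was not tested. The livers read 5.12, 6.04, 6.97 and 5.76 FPKM in LD and 4.69, 4.5, 8.37 and 4.98 FPKM in ADV and overlapped. The gene overlaps Hcfc1r1 on the opposite strand, and whether strand was used in counting is not given in the sources used here.

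Ltb, Tnfsf13b, Tnfrsf13c, Cd40, Tnfsf8 and Tnfrsf4, which act on or between lymphocytes and are grouped here after their values were seen, were highest in A94 in both organs. Lymphotoxin beta (Ltb, chr17:35194507-35196305, plus strand), the membrane ligand of Ltbr made by lymphocytes, read 0.674, 0.409, 0.348 and 0.542 FPKM in the LD livers and 0.763, 0.673, 8.88 and 0.454 FPKM in the ADV livers. Its liver log2 difference of 1.22 ± 0.76 (SE), the largest of the 18, had an adjusted p of 0.511 with limma and an exact permutation p of 0.171, and without A94 it was 0.31 ± 0.24 (limma adjusted p = 0.575). The kidneys read 0.378, 1.02, 0.96 and 1.03 FPKM in LD and 3.03, 0.828, 15.9 and 0 FPKM in ADV, with no fragment in A115, which allows up to 0.143 FPKM at 3 fragments. Ltb in A94 was 16.4 times the median of the other 7 mice in the liver and 16.5 times in the kidney.

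BAFF (Tnfsf13b, chr8:10006633-10036000, plus strand), the survival factor of B cells, read 0.266, 0.252, 0.225 and 0.217 FPKM in the LD livers and 0.29, 0.179, 2.27 and 0.28 FPKM in the ADV livers. Its kidneys read 1.19, 0.932, 1.86 and 0.83 FPKM in LD and 3.35, 1.15, 8.46 and 1.81 FPKM in ADV, a log2 difference of 1.22 ± 0.58 (SE, limma adjusted p = 1.0, exact permutation p = 0.143) that came to 0.69 ± 0.42 without A94. The BAFF receptor (Tnfrsf13c) read 0, 0.0853, 0.040 and 0.0643 FPKM in the LD livers and 0.0224, 0.0682, 2.04 and 0.0906 FPKM in the ADV livers, and 0.0948, 0.154, 0.153 and 0 FPKM and 0.175, 0.148, 3.48 and 0 FPKM in the kidneys. Both receptors that BAFF shares with APRIL were under the minimum in both organs and also highest in A94, where TACI (Tnfrsf13b) read 1.36 FPKM in the liver and 2.33 in the kidney, and BCMA (Tnfrsf17), a plasma cell receptor, 2.64 and 2.2 FPKM.

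Cd40, the receptor through which helper T cells activate B cells and dendritic cells, read 0.183, 0.218, 0.227 and 0.134 FPKM in the LD livers and 0.102, 0.181, 1.75 and 0.206 FPKM in the ADV livers. In the kidneys the values were 0.677, 1.08, 1.04 and 0.741 FPKM in LD and 1.31, 0.844, 4.29 and 0.452 FPKM in ADV. Its ligand Cd40lg was under the minimum, at most 0.194 FPKM in the livers and 1.04 FPKM in the kidneys, both in A94. Among the T cell costimulatory members, CD30 ligand (Tnfsf8) had the largest log2 difference of the kidney, 1.22 ± 0.62 (SE, limma adjusted p = 1.0), with 0.0927, 0.105, 0.0785 and 0.0743 FPKM in LD and 0.512, 0.0254, 1.11 and 0.294 FPKM in ADV. OX40 (Tnfrsf4) read 0.0898, 0.0509, 0.38 and 0.24 FPKM in the LD kidneys and 0.629, 0.345, 3.51 and 0 FPKM in the ADV kidneys, a log2 difference of 1.16 ± 0.99 (limma adjusted p = 1.0) that came to 2.01 ± 0.71 without A115 (limma adjusted p = 0.079). In the kidney A75 was second for Cd40, Tnfsf8 and Tnfrsf4 and, as for Ltb and Tnfsf13b above, lay over every LD kidney. Fasl and Tnfsf9 were highest in other kidneys, L86 and A75.

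Markers of immune cells and of some other cells were high in A94 together with these members. The 10 T and NK cell markers found summed to 25.7 FPKM in the liver and 46.9 FPKM in the kidney of A94, against 2.02 to 4.17 and 4.29 to 11.6 FPKM in the other 7 mice, and all 10 were highest in A94 in both organs. The macrophage and monocyte list summed to 433 and 393 FPKM against 111 to 228 and 51.9 to 173 FPKM, with 9 and 6 of its 10 markers highest in A94. The plasma cell list summed to 889.6 and 609.9 FPKM against 174 to 209 and 56.0 to 147 FPKM, with 5 of 6 markers highest in A94 in each organ. Neutrophil markers summed to 101 and 26.6 FPKM against 4.86 to 17.2 and 1.66 to 8.76 FPKM, with 6 and 4 of 6 highest in A94, and dendritic cell markers to 6.12 and 13.1 FPKM against 0.858 to 1.55 and 2.48 to 6.5 FPKM, with 6 and 5 of 6. In the liver of A94, lists of cells outside the immune system were also high. The bile duct list summed to 247 FPKM against 20.0 to 53.5 in the other 7 livers, with 2 of its 5 markers highest in A94, the stellate cell and fibroblast list to 248 against 114.8 to 196.9 FPKM with all 6 highest, and the adipocyte list to 70.1 against 15.9 to 29.8 FPKM with 1 of 6 highest. Like Tnfrsf11a and Tnfrsf11b, the stellate cell and adipocyte sums were higher in every ADV liver than in every LD liver. They ran from 114.8 to 132.5 FPKM in LD and from 160 to 248 FPKM in ADV for stellate cells. For adipocytes they ran from 15.9 to 24.2 FPKM in LD and from 25.8 to 70.1 FPKM in ADV. None of the B cell, plasma cell or T and NK cell markers was at 0 in every library. The part of these cells in the levels of the members was not tested.

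**Figure D4:**
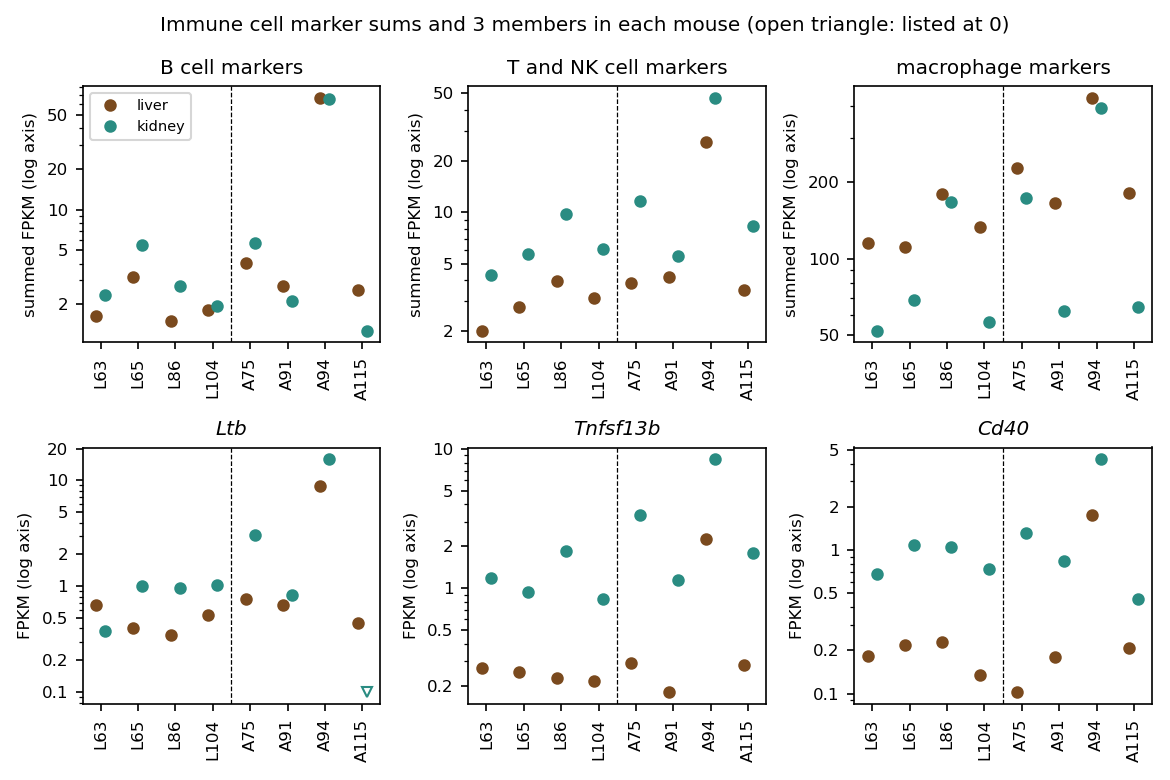
Summed FPKM of B cell, T and NK cell and macrophage markers (top) and FPKM of Ltb, Tnfsf13b and Cd40 (bottom) in each mouse, on log axes, with the liver in brown and the kidney in green and a dashed line between LD and ADV. A94 is the highest mouse of both organs in all 6 panels, and the open triangle is the kidney of A115, where Ltb had no fragment.

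Of the other death receptors, Fas, the receptor of Fas ligand, read 7.35, 9.42, 10.1 and 10.1 FPKM in the LD livers and 12.1, 10.4, 10.4 and 9.16 FPKM in the ADV livers, a log2 difference of 0.19 ± 0.13 (SE, limma adjusted p = 0.55). In the kidneys it read 5.29, 5.83, 7.23 and 5.45 FPKM in LD and 6.43, 5.24, 9.26 and 7.25 FPKM in ADV, with A94 highest and A115 not low. Fasl was under the minimum in both organs, between 0.021 and 0.296 FPKM in the livers, and its kidney range was from 0.0605 to 0.362 FPKM, with L86 and not A94 highest. TRAIL (Tnfsf10) read 12.4, 13.1, 10.4 and 10.9 FPKM in the LD kidneys and 8.2, 10.3, 13.8 and 9.82 FPKM in the ADV kidneys (log2 difference -0.17 ± 0.19, limma adjusted p = 1.0). Its death receptor Tnfrsf10b read 0.699, 0.525, 1.23 and 0.565 FPKM and 1.12, 0.695, 0.808 and 0.445 FPKM there.

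Among the remaining members tested, TROY (Tnfrsf19), an orphan receptor of progenitor cells, had the largest log2 decrease of the kidney, -0.52 ± 0.27 (SE, limma adjusted p = 1.0), with 0.243, 0.45, 0.39 and 0.274 FPKM in LD and 0.20, 0.211, 0.303 and 0.117 FPKM in ADV. HVEM (Tnfrsf14), the receptor of LIGHT, read 1.11, 1.58, 1.59 and 0.899 FPKM in the LD livers and 1.28, 1.54, 3.7 and 1.8 FPKM in the ADV livers (log2 difference 0.56 ± 0.32, limma adjusted p = 0.483, and 0.26 ± 0.22 without A94). GITR (Tnfrsf18), a receptor of regulatory T cells, read 0.154, 0.408, 0.523 and 0.385 FPKM in the LD kidneys and 1.36, 0.113, 4.03 and 0 FPKM in the ADV kidneys, from 0 in A115 to the maximum in A94. Log2 differences of the decoy receptors Tnfrsf22 and Tnfrsf23 were 0.17 and 0.52 in the liver and 0.06 and 0.09 in the kidney, and those of Tnfrsf26 were 0.40 and 0.26. Without A94 the liver values of Tnfrsf22, Tnfrsf23 and Tnfrsf26 were −0.06, 0.29 and −0.04. In the liver Tnfrsf23 passed the minimum through the ADV libraries. The log2 differences of Tnfsf9 (4-1BB ligand) and Tnfsf15 in the kidney were -0.15 and 0.13.

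The ADV effect was then compared between the organs within each mouse. Of the 21 members tested, 0 had a liver effect that differed from the kidney effect (limma adjusted p under 0.05, as 0% of all genes), and 0 had an unadjusted p under 0.05, beside 3.55% of all genes. For Tnfrsf11b the liver effect exceeded the kidney effect by 0.65 ± 0.37 on the log2 scale (SE, limma adjusted p = 1.0), and for Tnfrsf11a by -0.01 ± 0.21 (adjusted p = 1.0).

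The organs differed in about as large a share of the members as of all genes. Under LD, 16 of 19 members tested passed an adjusted p of 0.05 (limma) between liver and kidney, 6 higher in the liver and 10 lower, beside 15.8% and 69.3% of all genes. The median of all genes was −0.80 (log2, liver minus kidney), and near 0 (−0.030) after scaling by the median ratio, with which 7 members were higher and 10 lower, beside 36.5% and 39.4% of all genes. Quantile normalization left 8 higher and 4 lower, beside 37.2% and 38.3%. With every scaling, Tnfrsf1b, Tnfrsf11b, Tnfrsf19, Tnfrsf14, Ltbr and Fas were higher in the liver and Tnfrsf21, Tnfsf10, Tnfrsf10b and Tnfsf15 were higher in the kidney. For Tnfrsf11a, Tnfrsf26, Tnfrsf23, Ltb and Tnfrsf12a the sign depended on the scaling, and Cd40, Tnfsf13b and Tnfrsf22 no longer passed with quantile normalization. The fits treated liver and kidney as separate samples, and with the mouse as a replicate block 17 members passed, beside 85.8% of all genes.

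Death receptor 6 (Tnfrsf21, chr17:43016555-43089188, plus strand), best known from neurons and T cells, had the largest organ difference. It read 1.63, 1.51, 2.22 and 2.13 FPKM in the LD livers and 88.8, 95.9, 105 and 114 FPKM in the LD kidneys, where it was the most abundant member. The log2 difference, liver minus kidney, was -5.69 ± 0.13 (SE, limma adjusted p = 9.74e-12), 51.6-fold higher in the kidney on the log2(FPKM + 0.1) scale. This and the differences below are as deposited and depend on the scaling. The median of all genes was −0.80 as deposited and −0.030 with the median ratio. TRAIL (Tnfsf10, chr3:27317077-27339665, plus strand) was 8.04-fold higher in the kidney (log2 -3.01 ± 0.13, limma adjusted p = 2.51e-09), with 1.56, 1.48, 1.4 and 1.06 FPKM in the LD livers against the kidney values above. Its receptor Tnfrsf10b was higher in the same organ, with 0.0451, 0.0896, 0.012 and 0.0579 FPKM in the LD livers (log2 -2.46 ± 0.25, limma adjusted p = 3.38e-06). TL1A (Tnfsf15), a ligand of Tnfrsf25 known from endothelium, read 0.014, 0.0139, 0.0196 and 0.014 FPKM in the LD livers and 0.628, 0.431, 0.625 and 0.426 FPKM in the LD kidneys (log2 -2.43 ± 0.16). Tnfrsf1b went the other way and was 5.53-fold higher in the liver (log2 2.47 ± 0.24, limma adjusted p = 1.70e-06). Tnfrsf1a differed by 0.06 ± 0.20 (limma adjusted p = 0.776) as deposited, where the median of all genes was −0.80. In these 5 members, chosen for their size, no LD liver overlapped with an LD kidney, and of all genes 14.2% had every LD liver above and 66.1% every LD liver below the LD kidneys. Tnfrsf10b and Tnfsf15 were under the minimum in the liver and were tested through the kidney values. Their LD liver values lay under the 0.1 FPKM added before the log. Their log2 differences and SE therefore depend on that addition and understate the ratio of the FPKM.

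**Figure D5:**
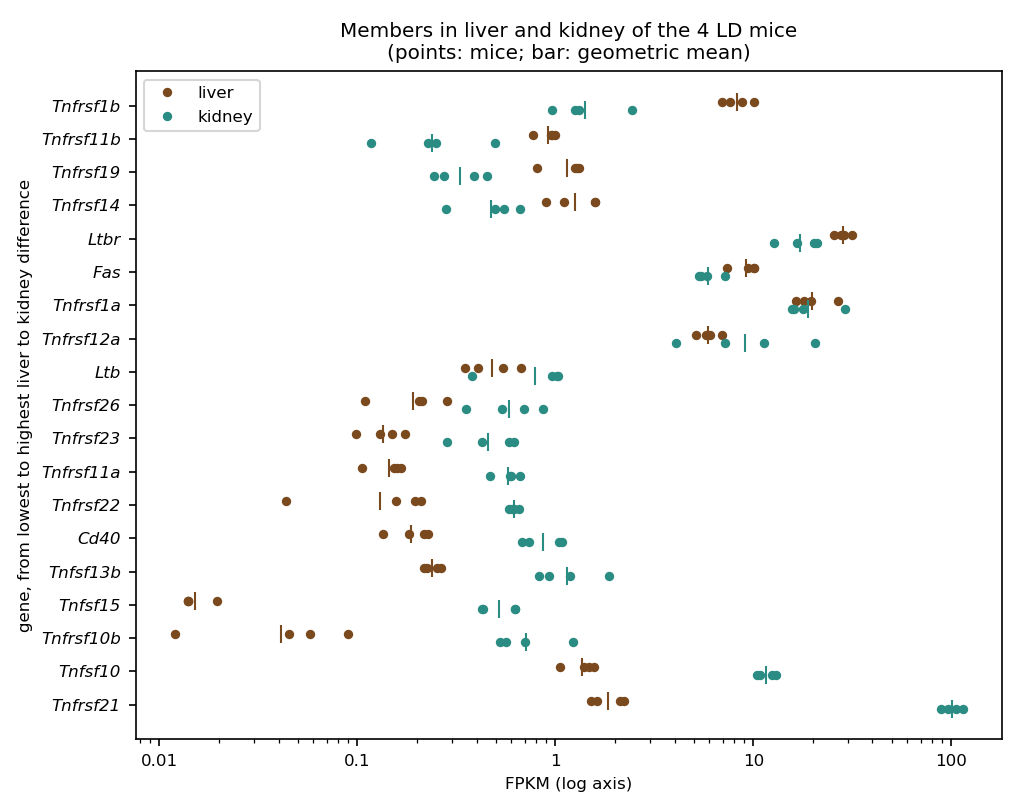
FPKM on a log axis of the 19 members tested between the organs in the 4 LD mice, with the liver in brown, the kidney in green and a bar at the geometric mean. Rows run from Tnfrsf21, with kidney values from 88.8 to 114 FPKM, at the bottom to Tnfrsf1b, with liver values from 6.94 to 10.1 FPKM, at the top.

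By level, the LD livers ranked Ltbr first at 28.3 ± 2.45 FPKM (SD, n = 4), then Tnfrsf1a at 20.2 ± 4.58, Fas at 9.24 ± 1.3, Tnfrsf1b at 8.34 ± 1.36 and Tnfrsf12a at 5.97 ± 0.766 FPKM. Fas and Tnfrsf1b lay within 1 SD of each other. The LD kidneys ranked Tnfrsf21 first at 101 ± 11 FPKM, then Tnfrsf1a at 19.6 ± 6.34, Ltbr at 17.6 ± 3.81, Tnfsf10 at 11.7 ± 1.25 and Tnfrsf12a at 10.8 ± 7.14 FPKM, and neither Tnfrsf1a and Ltbr nor Tnfsf10 and Tnfrsf12a differed by more than 1 SD. Every other member stayed below 2 FPKM on average in the LD livers, and below 6 FPKM in the LD kidneys.

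Under ADV, 10 of 24 members passed between the organs, 3 higher in the liver and 7 lower, beside 8.79% and 40.3% of all genes, and with the median ratio 5 were higher and 6 lower, beside 17.3% and 20.2%. With quantile normalization 5 were higher and 3 lower, beside 16% and 19.6%, so that the balance of all genes moved with the scaling too. The counts also moved with single mice. Without A94, 4 of 19 members were higher and 10 lower, beside 1163 and 4867 of 14317 genes. Without A75, 2 of 27 members were higher and 5 lower, beside 1000 and 3809 of 14511 genes. Tnfrsf21 again had the largest difference, -5.04 ± 0.34 (SE, limma adjusted p = 5.95e-06), with 2.57, 1.63, 3.0 and 2.66 FPKM in the ADV livers and 88.7, 112, 107 and 43.7 FPKM in the ADV kidneys, where A115 was lowest. Tnfrsf1b had an adjusted p of 0.0539 (limma), and 0.0311 with the mouse as a replicate block, under which 13 members and 47.6% of all genes passed. TRAIL (Tnfsf10) read 1.21, 1.59, 3.08 and 1.43 FPKM in the ADV livers, with A94 highest, and Tnfrsf10b 0.175, 0.075, 0.18 and 0.0816 FPKM. Tnfsf15 read 0.0147, 0.0149, 0.0226 and 0 FPKM in the ADV livers and 0.844, 0.539, 0.58 and 0.413 FPKM in the ADV kidneys.

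Some members lay close together in the genome. Of the 37 genes, 18 lay within 150 kb of another member. Ltb, Tnf and Lta were 3.06 kb and 1.16 kb apart on chromosome 17, Ltbr and Tnfrsf1a were neighbours on chromosome 6, and Tnfrsf26, Tnfrsf22 and Tnfrsf23 were 6.96 kb and 16.1 kb apart on chromosome 7. The last 3 are paralogs, and whether their reads could be told apart was not tested, so that their levels are given as uncertain. The kidney values were 0.581, 0.603, 0.657 and 0.622 FPKM in LD and 0.806, 0.461, 0.798 and 0.583 FPKM in ADV for the decoy TRAIL receptor Tnfrsf22.

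Genes up- and downstream of the receptors were counted from lists outside the rule. In the liver none of 5 other family members, 32 receptor adaptor and NF-kB genes, 13 death signalling genes and 19 TNF-induced genes tested passed an adjusted p of 0.05 (limma), and at an unadjusted p under 0.05, where 8.65% of all genes were higher and 3.13% lower, 1, 1, 3 and 2 of them were higher and 0, 1, 0 and 1 lower. Their median log2 differences were 0.47, 0.13, 0.25 and 0.47, beside 0.096 for all genes. The smallest p among the TNF-induced genes belonged to Saa3, an acute-phase protein, with 5.74 ± 1.04 FPKM in LD and 9.55 ± 2.18 FPKM in ADV (SD, n = 4, limma adjusted p = 0.296). Birc3, an NF-kB target that ubiquitinates RIPK1, read 3.43 ± 0.49 and 5.15 ± 1.22 FPKM (limma adjusted p = 0.348), and Mlkl, the executor of necroptosis, read 0.875 ± 0.101 and 2.32 ± 1.77 FPKM (limma adjusted p = 0.362). A94 was highest for all 3, and for Mlkl it read 4.97 FPKM against 1.36 to 1.47 FPKM in the other ADV livers. Those lower were Traf4, a receptor adaptor, with 10.3 ± 0.409 and 8.59 ± 1.04 FPKM (limma adjusted p = 0.412), and Sod2, the mitochondrial superoxide dismutase, with 43.6 ± 1.14 and 36.5 ± 3.8 FPKM (limma adjusted p = 0.366). In the kidney none of 7, 32, 13 and 22 genes passed, and 1, 0, 0 and 1 were higher at an unadjusted p under 0.05 (Edar and Cxcl9), beside 1.75% of all genes higher, and none was lower. The medians were 0.48, −0.0082, −0.036 and 0.34, beside −0.024 for all genes.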

How the data were processed

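RNA-seq libraries of both organs from 4 LD and 4 ADV mice were analysed. The authors trimmed adaptors with Trimmomatic, mapped reads to GRCm38/mm10 with STAR 2.5.4b, removed reads with a mapping quality under 10 with SAMtools, quantified exons of UCSC known canonical genes (HOMER) and deposited FPKM. Values multiplied by exon length and library total came out in steps of 0.5 fragment. Each library had been divided by its own total only. FPKM were tested as log2(FPKM + 0.1) with limma 3.58.1 (R 4.3.3, eBayes with a trend) over genes with a mean above 0.5 before the division by exon length, in each organ apart, with Benjamini-Hochberg adjustment over all of them. DESeq2 was not run. Exact permutation tests were two-sided, over 70 assignments. The procedure was checked on simulated data.

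The members and the gene lists were chosen with earlier results of these data known. Every mouse value is given for members above the minimum with an unadjusted p under 0.05 or non-overlapping groups, the 3 largest differences of each organ, named ligand and receptor pairs, and the 5 largest organ differences. Members under the minimum in both organs are given by range and count, and lists by counts. Liver and kidney are paired by the mouse named in the labels. The deviations of both organs from their group means correlated between −0.010 and 0.51 across genes for the same mouse. Correlations between different mice were not computed, so that these values do not test the pairing. Alternatives were other pseudocounts, filters and scalings, limma-voom on the recovered fragments, a joint fit of both organs with a replicate block by mouse, and the omission of single mice. Leaving out A115 with other scalings, leaving out A94 and A115, and leaving mitochondrial genes out of the totals were chosen after seeing the data. RefSeq promoters were read in Python.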

Additional observations from a re-analysis of the deposited data

Results flagged for a closer look

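In 84 groups of 4 mice (members above the minimum, by organ and condition, on the log2 scale), 1 mouse lay far from the other 3 by Dixon's ratio (95% critical value) in 10 groups, where chance gives about 1 in 20. Of them, 7 were ADV livers in which A94 was highest. The groups share their mice, and A94 was highest for 49.7% of all genes tested in the liver. The ratio was not taken for all genes, so that the count describes the members only. For Tnfrsf13c and Tnfsf13b the high value of A94 was what let them pass the minimum, so that they cannot be set against the rate of 1 in 20 either. The values of A94 were 8.88 FPKM for Ltb against 0.454 to 0.763 in the other 3, 2.27 for Tnfsf13b against 0.179 to 0.29, 2.04 for Tnfrsf13c against 0.0224 to 0.0906, 0.874 for Tnfrsf26 against 0.174 to 0.216 and 41.1 for Ltbr against 27.4 to 28.1 FPKM. A94 also read 8.37 for Tnfrsf12a against 4.5 to 4.98 and 9.97 for Tnfrsf1b against 6.04 to 6.57 FPKM. The kidney of A115 was low for Ltbr, with 2.88 FPKM against 31.1 to 42.3 in the other ADV kidneys. Among the LD mice, L104 was low for Tnfrsf19 in the liver (0.811 FPKM against 1.26 to 1.31) and L63 was low for Ltb in the kidney (0.378 FPKM against 0.96 to 1.03). The immune cell marker sums of A94 and the mitochondrial share of A115 stand beside these members in the report, and their part in the values was not tested.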

How the results depend on the processing

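The number of members called between the conditions was 0 in both organs under every alternative run, with 5 exceptions in the kidney. Without A115 (as deposited, scaled by the median ratio, with quantile normalization, or with mitochondrial genes left out of the totals) and without both A94 and A115, 1 member (Ltbr) of 20 to 26 was called, beside 4.7% to 18.8% of all genes, so that leaving out single mice gave 0 to 1. The kidney median of the members ranged from −0.040 without A94 to 0.67 without A115, and it was 0.055 without A75, 0.098 without L65, 0.30 without A91 and 0.37 without L86. The liver median was 0.19 without A94, with quantile normalization and with a pseudocount of 1, and 0.25 with a pseudocount of 0.5. The cause was not tested. Between the organs, a mean FPKM above 1 left 7 members tested and 5 called under LD (85.2% of all genes), and 11 tested and 4 called under ADV (48.5%). With the mouse as a replicate block 17 and 13 members were called between the organs (85.8% and 47.6% of all genes), and in a fit of both organs the paired design called 0 between the conditions. The differences between the conditions of Tnfrsf11a, Tnfrsf11b and Ltb in the liver and of Tnfrsf11a and Tnfsf13b in the kidney stayed above 0 under these alternatives, also without A94, down to 0.045 for Tnfrsf11a in the kidney without A115 and with quantile normalization. Tnfrsf13c in the liver and Tnfsf8 and Tnfrsf4 in the kidney were not tested without A94, since they then fell under the minimum. The kidney difference of Ltb was −0.43 ± 1.07 without A94 and 2.01 ± 0.83 without A115. Under the minimum, ligands such as Tnf and Tnfsf11 rested on a few fragments per library, so that depth limits what can be said of them.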
